A study of Mus musculus with 11 samples.

Results

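The 7 bulk RNA-seq libraries from islets of mice given the insulin receptor antagonist S-961 were divided by the level of *Mki67*, the gene of the proliferation antigen Ki-67, whichever parity label they carried. A library was placed in the high group where *Mki67* stood at 30 CPM or more (CPM, the usual depth-scaled read count, here relative to the library total), and in the low group otherwise. The rule placed 3 libraries in the high group and 4 in the low group, out of 11 libraries in the series. The members were chosen by their measured *Mki67* level and not from the study's design, so every difference between high and low is given as a description, without a p-value.

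All libraries came from islets of wild-type C57BL/6J female mice that were 9 weeks old when the experiment started. Multiparous mice had gone through 3 consecutive pregnancies and were taken 3 weeks after the last delivery, and virgin mice had not been pregnant. S-961 was injected intraperitoneally at 100 nmol/kg, 2 times a day for 3 days, in 3 libraries labelled virgin and 4 labelled multipara. The other 4 libraries, 2 labelled virgin and 2 labelled multipara, were untreated. All 3 libraries of the high group (multipara S-961 1, 2 and 3) carried the multipara label, and the low group held virgin S-961 1, 2 and 3 and multipara S-961 4. High *Mki67* and the multipara label therefore differed in 1 library alone. The labels did not state that each library came from a separate animal, so the spread between libraries may be in part technical.

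Adult beta cells divide rarely, and the blockade of insulin receptors raises blood glucose and the demand for insulin, a setting in which beta cells are known to re-enter the cell cycle. Replication and mitosis are carried out by genes that are transcribed in waves, with MCM helicases, PCNA and nucleotide synthesis in S phase, and cyclin B, CDK1, kinetochore and spindle proteins in G2 and M phase. Many promoters of the latter hold CCAAT boxes and a cell cycle homology region (CHR), and many S phase promoters hold E2F sites.

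*Mki67* stood at 109.9, 70.7 and 56.3 CPM of the library total in multipara S-961 1, 2 and 3. In the low group it stood at 15.7 in virgin S-961 2, 4.45 in multipara S-961 4, 3.88 in virgin S-961 1 and 3.25 in virgin S-961 3. The values just inside and just outside the threshold were thus 56.3 and 15.7 CPM, and any threshold between them gave the same groups. Among the untreated libraries, multipara 1 passed the same threshold with 32.6 CPM, and the other untreated libraries held 5.30 (virgin 1), 2.79 (virgin 2) and 1.54 CPM (multipara 2).

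**Figure D1:**
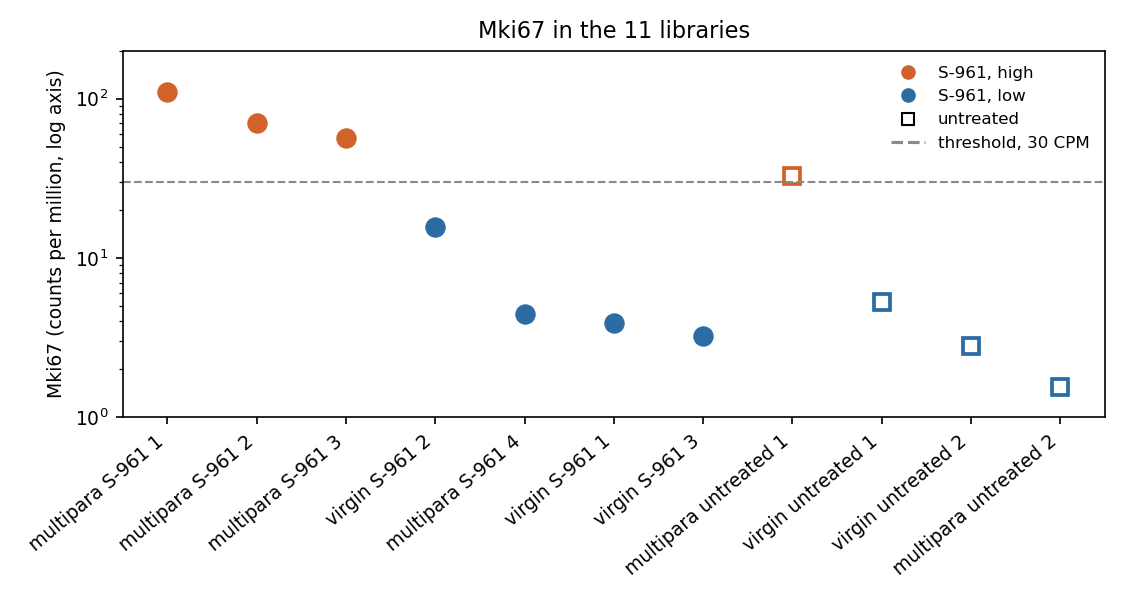
*Mki67* in CPM of the library total (log axis) in the 7 S-961 libraries (circles) and the 4 untreated libraries (squares), with the threshold of 30 CPM as a dashed line. The 3 high S-961 libraries lie between 56.3 and 109.9 CPM and the 4 low ones between 3.25 and 15.7 CPM, and 1 untreated library, multipara 1, lies above the line at 32.6 CPM.

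The parity labels of the S-961 libraries went against pregnancy genes that followed the label without treatment (CPM values scaled by TMM within each treatment). Of 13 tested genes of a serotonin and pregnancy list, 3 were higher in the untreated multipara than in the untreated virgin libraries, at least 2-fold in the mean and without overlap. After S-961 the direction was the opposite, and multipara 1, 2 and 3 all lay below every virgin library in these 3 genes. *Lrrc55*, an auxiliary subunit of BK channels, measured 20.1 and 17.8 CPM in untreated multipara 1 and 2 and 0.574 and 0.671 in untreated virgin 1 and 2. With S-961 it measured 0.684, 0.367 and 2.29 CPM in multipara 1, 2 and 3, 5.02 in multipara 4 and 8.48, 7.68 and 6.17 in virgin 1, 2 and 3. *Matn2*, a matrix protein, measured 41.4 and 38.9 CPM in the untreated multipara libraries and 16.9 and 15.6 in the untreated virgin ones, and *Tnfrsf11b*, the decoy receptor osteoprotegerin, measured 3.93 and 4.52 against 2.17 and 1.98. Over all genes the picture was mixed. Of 15311 genes not apart in this way without treatment, 2173 lay above and 1546 below the virgin label in multipara S-961 1, 2 and 3. Of 324 genes higher in the untreated multipara libraries 55 lay above and 39 below, near the share of the genes not apart. Of 170 lower ones 78 lay above and 6 below, so that these lay above more often than the genes not apart. Libraries are named by their labels throughout, and no direction for parity is drawn from the grouping.

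The S-961 libraries held between 28638659 and 31832273 counts, so depth was alike in both groups. The insulin genes took 13.2 to 17.3% of the counts in the high group and 15.2 to 20.7% in the low group. On a principal component analysis of the 500 most variable genes the first component held 54.5% of the variance and placed the high libraries at 24.6 to 43.3 and the low libraries at -32.9 to -16.3. Multipara S-961 4 resembled virgin S-961 1 (chi-square of 9.78 per gene, where sampling noise alone gives about 1) and virgin S-961 2 (11.8) more than any library of its own label (58.2 to 95.9). Virgin S-961 3 stood apart from the rest of the low group, with 45.6 to 64.5 per gene against its members. The high libraries also differed widely from each other, by 48.4 to 127 per gene, and multipara S-961 1 was closer to virgin S-961 2 (46.3) than to either of the other high libraries.

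To show which promoters lie before the genes that went with *Mki67*, the 250 bases before the gene start were read from RefSeq (build GRCm38.p6) for 3 genes of mitosis. Capitals mark each CCAAT pentamer (either strand) and each CHR element TTTGAA (either strand).
*Mki67* (chr7:135716380-135716629, minus strand): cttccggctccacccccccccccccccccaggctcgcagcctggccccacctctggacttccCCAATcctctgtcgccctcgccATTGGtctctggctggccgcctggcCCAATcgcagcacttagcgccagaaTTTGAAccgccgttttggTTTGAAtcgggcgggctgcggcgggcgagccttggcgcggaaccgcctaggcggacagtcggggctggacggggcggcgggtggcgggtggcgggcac
*Bub1* (chr2:127831860-127832109, minus strand): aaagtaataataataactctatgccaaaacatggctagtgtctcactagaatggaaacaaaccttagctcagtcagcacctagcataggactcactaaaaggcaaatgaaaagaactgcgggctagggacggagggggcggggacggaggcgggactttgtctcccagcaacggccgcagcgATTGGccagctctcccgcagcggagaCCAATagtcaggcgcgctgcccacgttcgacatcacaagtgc
*Hmmr* (chr11:40733438-40733687, minus strand): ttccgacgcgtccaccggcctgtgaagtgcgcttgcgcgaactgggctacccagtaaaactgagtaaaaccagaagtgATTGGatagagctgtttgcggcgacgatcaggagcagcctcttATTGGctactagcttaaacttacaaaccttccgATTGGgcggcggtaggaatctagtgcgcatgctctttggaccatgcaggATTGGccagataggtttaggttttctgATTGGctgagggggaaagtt

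The promoter of *Mki67* held 3 CCAAT matches and 2 CHR matches within the 250 bases, *Bub1* (a spindle checkpoint kinase) held 2 CCAAT matches, and *Hmmr* (a spindle-associated hyaluronan receptor) held 5. For genes outside the cell cycle lists that differed between the groups, 5 promoters are shown with the same marks, with E2F octamers (TTTGGCGC, TTTCCCGC, TTTCGCGC or TTTGCCGC, either strand) also in capitals.
*Zfp367* (chr13:64153200-64153449, minus strand): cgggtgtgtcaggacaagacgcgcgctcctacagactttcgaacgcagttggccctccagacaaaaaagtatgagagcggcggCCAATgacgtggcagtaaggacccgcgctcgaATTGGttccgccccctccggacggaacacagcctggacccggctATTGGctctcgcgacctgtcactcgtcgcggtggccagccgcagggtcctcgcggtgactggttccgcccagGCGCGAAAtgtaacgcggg
*Slfn9* (chr11:82991831-82992080, minus strand): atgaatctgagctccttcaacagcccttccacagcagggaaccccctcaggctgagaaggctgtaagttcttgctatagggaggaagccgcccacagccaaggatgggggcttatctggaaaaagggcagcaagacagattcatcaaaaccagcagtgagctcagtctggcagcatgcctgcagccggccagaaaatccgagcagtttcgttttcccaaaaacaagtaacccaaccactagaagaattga
*Atad5* (chr11:80089150-80089399, plus strand): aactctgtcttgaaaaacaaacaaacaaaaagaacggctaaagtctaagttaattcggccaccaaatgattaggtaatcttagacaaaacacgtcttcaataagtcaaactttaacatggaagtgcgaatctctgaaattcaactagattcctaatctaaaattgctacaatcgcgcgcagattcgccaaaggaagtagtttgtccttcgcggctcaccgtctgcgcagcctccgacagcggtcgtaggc
*Vip* (chr10:5638968-5639217, plus strand): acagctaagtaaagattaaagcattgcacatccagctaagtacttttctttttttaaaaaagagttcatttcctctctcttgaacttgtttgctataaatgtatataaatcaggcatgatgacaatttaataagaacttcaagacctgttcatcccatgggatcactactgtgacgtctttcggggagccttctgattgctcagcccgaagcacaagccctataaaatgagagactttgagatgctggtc
*Bcat1* (chr6:145076158-145076407, minus strand): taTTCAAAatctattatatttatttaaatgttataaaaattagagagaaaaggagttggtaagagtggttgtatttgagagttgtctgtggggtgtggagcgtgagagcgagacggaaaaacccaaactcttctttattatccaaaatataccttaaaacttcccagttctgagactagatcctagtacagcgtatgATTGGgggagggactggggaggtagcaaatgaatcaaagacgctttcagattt

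Of these 5, *Zfp367* held 3 CCAAT matches and 1 E2F match, *Bcat1* held 1 CCAAT and 1 CHR match, and no match lay within the window of *Slfn9*, *Atad5* or *Vip*. *Rerg*, *Csf2rb* and *Tnfrsf11b*, described below, had no entry in the promoter table.

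A gene was counted as higher or lower in the high group where the edgeR log2 fold change was at least 2-fold and the CPM values of the 2 groups did not overlap. From here on CPM values of S-961 libraries are scaled by TMM over the 7 libraries. Of 16784 genes tested, 971 (5.79%) were higher and 129 (0.769%) were lower in the high group, and the median log2 fold change over all genes was 0.01. Of 489 tested genes of the cell cycle lists, 255 were higher and 2 were lower. The rule used these same libraries, so these shares describe the grouping and support nothing further.

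The cell cycle genes showed what the grouping by *Mki67* meant. Of the 43 S phase genes of the Seurat cell cycle list, 31 were higher and none was lower (median log2 fold change 2.02), and of its 54 G2/M genes 43 were higher and none was lower (3.61). Over the 97 genes together the median was 2.62, and a mean log2 level of 4.40, 4.48 and 3.56 in multipara S-961 1, 2 and 3 stood beside 1.41 to 1.94 in the low group. *Clspn*, a mediator of the replication checkpoint, measured 13.7, 16.0 and 7.04 CPM in multipara S-961 1, 2 and 3. In the low group it measured 0.468 in multipara S-961 4 and 0.174, 0.986 and 0.150 in virgin S-961 1, 2 and 3. *Bub1* measured 9.30, 9.10 and 6.74 CPM in the high group and 0.187 to 0.402 CPM in the low group, a log2 fold change of 4.69 ± 0.29 (SE). *Hmmr* measured 24.6, 23.7 and 12.1 CPM against 0.626 to 1.12. *Pbk*, a mitotic kinase, measured 36.1, 45.3 and 19.5 CPM against 0.299 to 1.22. In each of these genes multipara S-961 3 was the lowest of the high libraries and still lay several times above every low library.

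The 2 cell cycle genes in the opposite direction, named after their values were seen, were histone genes. *Hist1h4h* measured 3.17 to 4.30 CPM in the high group and 5.71 to 13.3 CPM in the low group, and *Hist1h3f* measured 0.218 to 0.692 against 0.799 to 1.27 CPM. Replication-dependent histone transcripts lack a poly(A) tail and these libraries were made from poly(A) RNA, so their levels here are those of the captured fraction.

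Outside the cell cycle lists 16295 genes were tested. In the high group 716 of them were higher and 127 were lower, with median sizes of 1.47 and 1.40 on the log2 scale. Most were weakly expressed, and a mean log2 CPM of 2 or more over the 7 libraries was reached by 146 of the higher and 52 of the lower genes. Protein-coding genes made up 665 of the higher and 82 of the lower genes. The cell type marker lists held 40 of the higher and none of the lower genes. Without multipara S-961 1, 2 or 3 in turn the lower genes outside the lists numbered 226, 224 and 261, and without multipara S-961 2 the higher ones numbered 1117. With virgin S-961 2 moved to the high group, 192 of the 716 higher and 27 of the 127 lower genes still met the rule. Within the multipara label alone, multipara S-961 4 is the single low library. These genes were already chosen for no overlap with it. The counts of that comparison are given with the other settings below, and nothing is read from them.

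The libraries did not order these genes as they ordered the cell cycle genes. Multipara S-961 3, with the lowest *Mki67* of the high group, was the lowest of the 3 in 244 of the 255 higher cell cycle genes, but in 179 of the 716 higher genes outside the lists. In 409 of these 716 it was the highest, but the share over all tested genes was not counted for that position, so nothing is read from it. Over all tested genes it was the lowest of the 3 in 6448 of 16784. The levels followed the order of *Mki67* within the high group in 41.2% of the higher cell cycle genes, in 14.2% of the higher genes outside, and in 12.3% of all tested genes. In the low group, virgin S-961 2, which held the most *Mki67* there, was the highest of the 4 in 45.1% of the higher cell cycle genes, in 27.9% of the higher genes outside and in 22.6% of all tested genes. Multipara S-961 4, which shared the label of the high group but not its *Mki67*, lay above all 3 virgin libraries in 33.9% of the higher genes outside the lists, in 20.8% of the higher cell cycle genes and in 19.2% of all tested genes.

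The higher genes with the widest gap between the groups are given first. *Slfn9*, a member of the Schlafen family on chromosome 11, measured 50.5, 40.1 and 15.9 CPM in multipara S-961 1, 2 and 3. It measured 1.47 in multipara S-961 4 and 2.40, 1.33 and 0.262 in virgin S-961 1, 2 and 3, a log2 fold change of 4.69 ± 0.56 (SE). Its order over the high libraries was that of *Mki67*, and reads from near-identical Schlafen genes may be split between copies. *Atad5*, whose product unloads PCNA from replicated DNA, measured 13.2, 9.10 and 7.97 CPM in the high group. In the low group it measured 3.71 in multipara S-961 4 and 3.55, 2.65 and 2.10 in the virgin libraries. *Gpsm2*, which orients the mitotic spindle, measured 9.61, 7.83 and 7.95 CPM against 1.83 to 3.44, and *Zfp367*, a zinc finger transcription factor, 58.1, 62.1 and 33.2 against 11.5 to 12.9. *Atad5* and *Gpsm2* thus act in replication and division although the lists did not hold them.

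Other higher genes with a wide gap act in signalling, lipid synthesis and the extracellular matrix. *Vip* encodes vasoactive intestinal peptide, a neuropeptide that raises insulin secretion. It measured 13.3, 17.7 and 17.0 CPM in multipara S-961 1, 2 and 3, 3.01 in multipara S-961 4 and 2.54, 3.09 and 1.27 in virgin S-961 1, 2 and 3, a log2 fold change of 2.68 ± 0.28 (SE). *Fads2*, the delta-6 desaturase of polyunsaturated fatty acid synthesis, measured 31.0, 31.6 and 19.1 CPM against 5.11 to 7.11. *Atf3*, a stress-induced transcription factor, measured 73.4, 89.6 and 85.4 CPM against 28.5 to 32.4. In *Atf3* the gap between the groups was wider than the spread within either. *Gem*, a small GTPase that restrains voltage-gated calcium channels, measured 37.5, 37.6 and 62.1 CPM against 15.4 to 18.3.

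*Fxyd3*, a regulator of the sodium pump, measured 11.3, 9.36 and 7.10 CPM against 2.75 to 3.18. *Neurl1b*, a ubiquitin ligase of Notch ligands, measured 9.64, 7.30 and 9.51 CPM against 2.58 to 2.96. *Tppp3*, which promotes tubulin polymerisation, measured 18.2, 23.4 and 21.1 CPM against 5.94 to 7.75. Within the high group *Fxyd3* followed the order of *Mki67*, and *Neurl1b* and *Tppp3* did not. The collagen gene *Col16a1* measured 22.1, 27.8 and 20.6 CPM against 4.75 to 5.79, and *Fbln2*, encoding the matrix protein fibulin 2, measured 11.8, 10 and 17.5 against 1.8 to 4.35.

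*Reg1*, a secreted regenerating family protein of the exocrine pancreas, measured 319.7, 333 and 347 CPM in the high group, 103 in multipara S-961 4 and 98.3, 154 and 45.0 in the virgin libraries. *Pla2g1b*, the pancreatic phospholipase A2 of acinar cells, measured 40.8, 36.1 and 25.9 CPM against 3.82 to 12.9. Both were at their lowest in virgin S-961 3, the library with the least exocrine RNA.

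The lower genes with the widest gap included several receptors and signalling proteins. *Rerg*, a Ras-related and oestrogen-regulated growth inhibitor, measured 2.15, 2.07 and 2.86 CPM in multipara S-961 1, 2 and 3, 17.8 in multipara S-961 4 and 22.6, 15.3 and 14.8 in virgin S-961 1, 2 and 3, a log2 fold change of -2.90 ± 0.22 (SE). *Bcat1*, the cytosolic branched-chain amino acid transaminase, measured 0.653, 1.23 and 0.572 CPM in the high group, 15.8 in multipara S-961 4 and 19.0, 6.43 and 16.5 in the virgin libraries (-4.14 ± 0.45). Virgin S-961 2, the low library with the most *Mki67*, was the lowest of the low group for *Bcat1*. *Csf2rb*, the shared beta chain of the receptors for interleukin 3, interleukin 5 and GM-CSF, measured 2.86, 3.03 and 8.94 CPM against 24.7 to 56.0. *Tnfrsf11b* measured 14.7, 18.1 and 10.6 CPM in the high group, 52.5 in multipara S-961 4 and 55.3, 53.8 and 47.4 in the virgin libraries (-1.85 ± 0.18). Multipara S-961 4 lay within the virgin range for *Rerg*, *Bcat1* and *Tnfrsf11b*, and just under it for *Csf2rb*.

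*Crispld2*, a secreted glycoprotein, measured 11.1, 11 and 6.26 CPM against 41.2 to 73.6. *Ppm1e*, a protein phosphatase, measured 31.6, 25.9 and 16.0 CPM against 80.4 to 94.8. *Nmnat2*, an enzyme of NAD synthesis known from axons, measured 4.35, 4.57 and 6.05 CPM against 13.2 to 18.2. In each of these genes the lowest of the low libraries was more than 2 times as high as the highest of the high libraries. *Gabra4*, a subunit of the GABA-A receptor, measured 5.66, 7.5 and 3.88 CPM against 15.3 to 21.1. The other 6 of the 14 lower genes reported, *Gbp8*, *Stk32b*, *Pdzrn3*, *B3galt1*, *Mctp1* and *Actr3b*, had log2 fold changes from -2.02 (*Pdzrn3*) to -1.25 (*Actr3b*), and *Gbp8* has close relatives among the guanylate-binding proteins between which reads may be split.

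**Figure D2:**
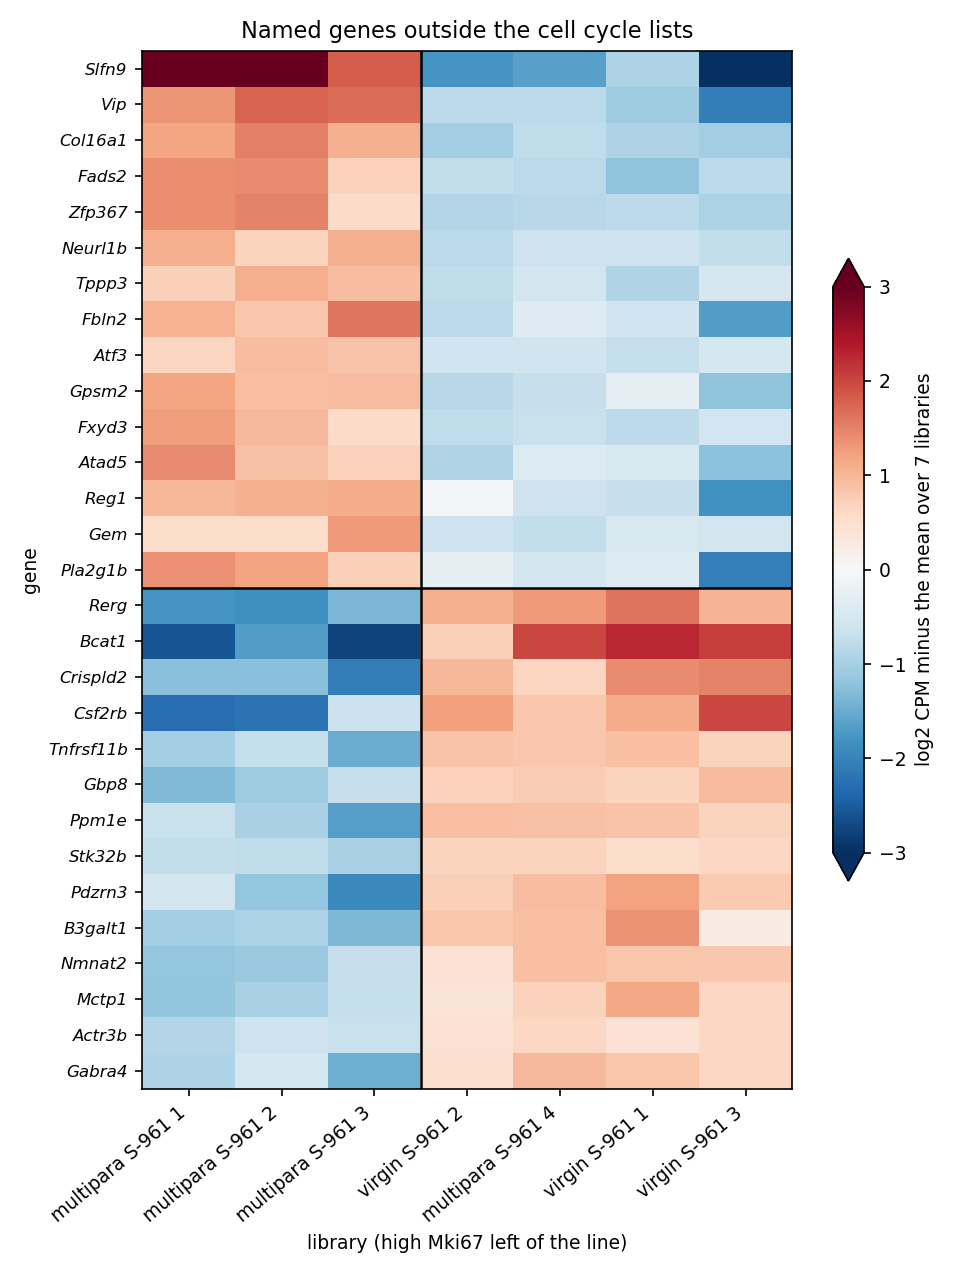
Log2 CPM minus the gene's mean over the 7 S-961 libraries (colour scale cut at -3 and 3) for 15 higher (top) and 14 lower genes (bottom) outside the cell cycle lists with the widest gap, one row per gene and one column per library in the order of *Mki67* within each group. The rule chose genes without overlap, so the change of colour at the vertical line is built in, and what can be read is the spread within each group, as in *Bcat1*, where virgin S-961 2 measured 6.43 and the other low libraries 15.8 to 19.0 CPM.

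Among genes of the beta cell response to pregnancy, the count of higher genes lay near the background and that of lower genes lay above it. Of 14 tested genes of the serotonin and pregnancy list, 1 was higher and 3 were lower (median -0.06), where the shares of all tested genes would give 0.81 and 0.108. *Htr3a*, the serotonin-gated channel, measured 3.48, 5.03 and 4.09 CPM in the high group and 0.524 to 1.57 in the low group. *Matn2* measured 47.8, 67.8 and 31.5 CPM against 130.5 to 172. *Lrrc55*, with the values above, and *Tnfrsf11b* were the other lower members. All 3 lower members were the genes that were higher in the untreated multipara libraries. Of 28 tested genes of beta cell identity and hormones, 1 was lower and none was higher (median -0.04), and it was *Esr1*, the oestrogen receptor alpha, with 0.311, 0.333 and 0.481 CPM against 2.54 to 5.21. The shares of all tested genes would give 0.215 lower and 1.62 higher genes in that list.

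*Ins1* ranged from 38874 to 51891 CPM in the high group and from 44719 to 66436 in the low group, and the groups overlapped for *Ins2* and *Iapp* as well. Of 16 immature and disallowed beta cell genes 3 were higher (median 0.60, and 0.32 without multipara S-961 3): *Gc*, the vitamin D binding protein, with 259.7, 351 and 137 CPM against 88.5 to 98.0, and *Sox9* and *Pdgfra*, which are also on the duct and fibroblast lists. The share of all tested genes would give 0.926 higher genes.

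Lists of cell growth and biosynthesis held few genes or none that were apart by the rule. None of the 36 ribosome biogenesis genes, 28 splicing genes, 15 polyamine and amino acid supply genes, 17 pentose phosphate and NADPH genes, 37 proteasome subunits, 82 cytosolic ribosomal proteins, 77 mitochondrial ribosomal proteins, 77 respiratory chain subunits or 13 mitochondrially encoded genes was at least 2-fold apart without overlap. The share of all tested genes would give from 0.752 (mitochondrially encoded genes) to 4.74 (cytosolic ribosomal proteins) higher genes, so the counts of the smaller lists lie near the background. The medians of these lists lay between -0.29 (ribosome biogenesis) and 0.14 (cytosolic ribosomal proteins). Nucleolin, *Ncl*, which acts in ribosome assembly, measured 249, 293 and 195 CPM in the high group and 235 to 279 in the low group, and nucleophosmin, *Npm1*, 159, 214 and 124 against 138 to 201. The groups overlapped for both. Lists of one-carbon and lipid metabolism held few genes that differed, near the 5.79% of all tested genes that were higher. Of 26 genes of serine, one-carbon and purine synthesis 2 were higher (median 0.02): *Mthfd2*, a mitochondrial folate enzyme, with 39.0, 49.1 and 79.7 CPM against 22.1 to 28.1, and *Shmt1* with 3.70, 4.70 and 2.29 against 0.748 to 1.70. Of 19 fatty acid synthesis genes 2 were higher (*Fads2* and *Thrsp*, median 0.09). At the share of all genes these lists would hold 1.5 and 1.1. The median was 0.02 over 25 sterol synthesis genes and -0.09 over 20 fatty acid oxidation genes.

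None of 29 endoplasmic reticulum stress genes, 16 cytosolic heat shock genes, 26 glycolysis genes, 29 insulin and IGF signalling genes, 19 clock genes or 12 glucocorticoid targets was apart by the rule, with medians from -0.18 (heat shock) to 0.22 (glucocorticoid targets). The share of all tested genes would give from 0.694 (glucocorticoid targets) to 1.68 (endoplasmic reticulum stress) higher genes, so these counts also lie near the background. *Irs2*, the insulin receptor substrate of the beta cell, measured 257, 169 and 218 CPM in the high group and 120.0 to 175 in the low group, so the groups overlapped. *Hspa5*, the chaperone BiP, measured 3233, 4037 and 1488 CPM against 2509 to 3756, and the spread within the high group was wider than the difference. Of 23 immediate early genes 2 were higher, *Atf3* and *Egr2*, and *Nr4a3* was lower (median 0.47). Of 15 hypoxia genes 2 were higher, *Egln3* and *Car9* (0.04), and of 20 p53 targets 2 were higher, *Ckap2* and *Psrc1* (0.20), which are also cell cycle genes. Of 25 TGF-beta, BMP and Id genes *Id4* was higher and *Inhbb* was lower (0.21). *Inhbb*, encoding an activin subunit, measured 15.2, 16.8 and 7.28 CPM in the high group against 23.9 to 33.9. At the share of all tested genes, 5.79%, these lists of 15 to 25 genes would hold from 0.868 (hypoxia) to 1.45 (TGF-beta) higher genes, so their counts of 1 and 2 lie near the background and are no result about the lists. Their mean log2 levels were higher in the high group without overlap. They were 6.31 to 6.53 against 5.90 to 6.06 (immediate early) and 4.64 to 4.93 against 4.34 to 4.54 (hypoxia). For p53 targets they were 4.025 to 4.131 against 3.505 to 3.607, and for TGF-beta 3.25 to 3.54 against 3.07 to 3.19.

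Of 24 growth factors and receptors 4 were higher (median 0.25): *Erbb2*, *Erbb3*, *Ngfr* and *Pdgfra*. The share of all genes would give 1.39. *Erbb3* is also one of the higher members of the neural and Schwann list and *Pdgfra* one of the fibroblast list, and both of those lists went with the groups (medians 1.15 and 1.17). Without multipara S-961 3 the median of the growth factor list was 0.05. Of 30 secretion and excitability genes 2 were higher, *Cplx1* and *Adcy8* (0.09), where the share of all genes would give 1.74. Of 31 cytoskeleton genes 3 were higher (0.09), among them *Stmn2*, a microtubule destabiliser of neurons, with 9.52, 13.4 and 11.6 CPM against 2.92 to 4.83, beside *S100a6* and *Tmsb10*, where the share of all genes would give 1.79. The secretion and cytoskeleton counts thus lie near the background.

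Markers of other cells went with the groups. Of 26 acinar genes, digestive enzymes and their regulators, 22 were higher and none was lower (median 1.28), where the share of all genes would give 1.5 higher ones. The list took 1.46 to 1.91% of all counts in the high group, 0.256 to 1.03% in the low group and 0.013 to 0.022% in the untreated libraries. *Cpa1*, carboxypeptidase A1, measured 1477, 1201 and 995 CPM in the high group, 606 in multipara S-961 4 and 710.4, 888 and 237 in virgin S-961 1, 2 and 3. All 26 acinar genes were detected in both groups. In bulk samples more cells of a type and more RNA per cell cannot be told apart. With the mean level of the acinar list as a covariate 580 genes outside the cell cycle lists were higher, of which 495 were among the 716 and 85 were not. That level was 7.56 to 8.02 on the log2 scale in the high group and 5.30 to 7.15 in the low group, without overlap, so acinar RNA and the grouping by *Mki67* cannot be told apart in these libraries. Under the covariate the log2 fold change of *Reg1* went from 1.73 to 0.74 and that of *Pla2g1b* from 1.8 to 0.55.

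Of 14 fibroblast and stellate genes 7 were higher (median 1.17), where the share of all genes would give 0.81. Their summed level was 502 to 766 CPM in the high group and 337 to 466 in the low group. *Col3a1* measured 55.8, 53 and 127 CPM in the high group, 46.1 in multipara S-961 4 and 20.4 to 24.1 in the virgin libraries, so that both the *Mki67* group and the multipara label went with it. *Pdgfrb* measured 15.4 to 25.2 CPM against 14.8 to 18.1 and overlapped. With the mean level of this list as a covariate, 495 higher and 114 lower genes outside the cell cycle lists were counted, of which 424 and 77 were shared. The fibroblast level did not overlap between the groups either (4.24 to 5.17 against 3.24 to 4.07), and within the multipara label the list's median was 0.56. Of 5 tested Reg family genes 4 were higher (median 3.99, but 2.38 within the multipara label and 1.85 without multipara S-961 3), where the share of all genes would give 0.289. The mean log2 level of the Reg family was 2.9, 3.5 and 5.1 in multipara S-961 1, 2 and 3. That of the acinar list ran the other way, at 8.0, 7.8 and 7.6. *Reg2* measured 8.77, 29.9 and 66.4 CPM in multipara S-961 1, 2 and 3, 2.08 in multipara S-961 4 and 0, 5.88 and 0.374 in virgin S-961 1, 2 and 3, and *Reg3b* measured 2.96, 4.03 and 32.6 against 0.07 to 0.918. Both were highest in multipara S-961 3 and lowest in multipara S-961 1 among the high libraries, opposite to *Mki67*, and reads may be split between these close relatives.

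Of 8 neural and Schwann genes 4 were higher (median 1.15), and of 13 duct genes 3 (0.57), among them *Krt19* with 7.81, 14.1 and 5.06 CPM against 0.765 to 2.62. At the share of all genes these lists would hold 0.463 and 0.752 higher genes. *Sox10*, which defines Schwann cells, was low throughout, at 0.866 to 2.14 against 0.374 to 1.17 CPM, and overlapped. Hormone genes of the other endocrine cells had no member 2-fold apart among 7 delta and 4 PP genes, and 1 of 10 alpha genes, *Gria3*. Glucagon, *Gcg*, measured 21286, 24764 and 21380 CPM in the high group against 14044 to 16446, a log2 fold change of 0.57 ± 0.12 (SE), under 2-fold without overlap. The mean log2 levels of the endocrine lists did not overlap between the groups. Those of alpha (5.87 to 6.01 against 5.33 to 5.71), delta (4.56 to 4.66 against 4.01 to 4.22) and PP (7.49 to 7.61 against 6.70 to 7.07) were higher in the high group. That of the beta list was lower (10.28 to 10.47 against 10.55 to 10.67). None of 16 macrophage, 15 lymphocyte, 13 beta, 5 red cell or 2 mesothelial genes was apart by the rule, and 1 of 5 plasma cell genes (*Sdc1*), 1 of 13 endothelial genes (*Vwf*) and 1 of 2 tested neutrophil and mast cell genes (*Kit*) was higher. The share of all tested genes would give these lists from 0.116 (mesothelial) to 0.926 (macrophage) higher genes. *Gria3*, *Vwf* and *Kit* are named after their values were seen. *Cd3e*, which defines T cells, stood at 0 to 0.331 CPM in the high group and 0.136 to 0.561 in the low group.

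Of 24 interferon response and MHC class I genes 7 were higher and none was lower (median 0.67, and 0.38 within the multipara label and 0.43 with virgin S-961 2 in the high group). The share of all tested genes would give 1.39 higher genes. *Oas2*, a sensor of double-stranded RNA, measured 3.58, 5.13 and 2.95 CPM against 0.680 to 1.17, and *Ifit3* measured 6.78, 13.6 and 4.51 against 1.67 to 2.71. The summed lymphocyte list ranged from 149 to 307 CPM in the high group and from 44.8 to 463 in the low group, and overlapped.

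**Figure D3:**
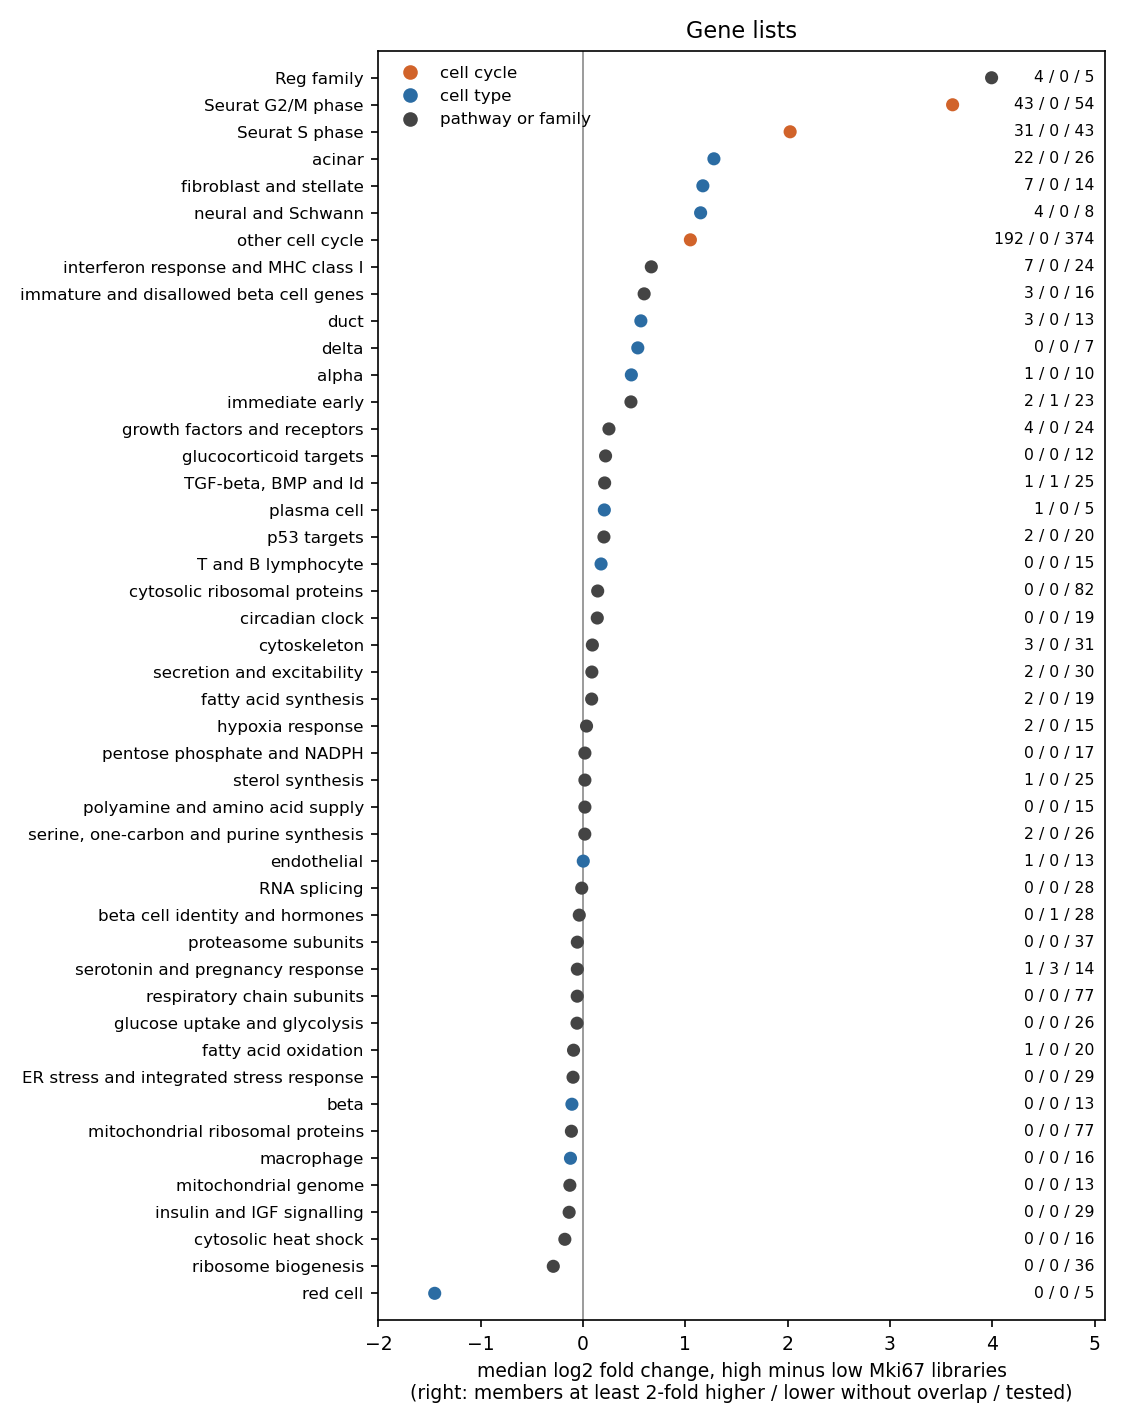
Median log2 fold change, high minus low *Mki67* libraries, of each list with 5 or more tested genes, with the number of members at least 2-fold higher, lower without overlap and tested at the right. The G2/M and S phase lists (3.61 and 2.02) and the Reg family (3.99) lie farthest to the right, followed by acinar (1.28), fibroblast (1.17) and Schwann cell genes (1.15), and the lists of ribosome assembly, splicing, stress and insulin signalling lie near 0.

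The untreated libraries were not used by the grouping. The 1 untreated library above the *Mki67* threshold, multipara 1, was set against the other 3, each gene being counted as above or below where multipara 1 lay outside the range of the others. With 1 library on one side this is a description and no test was made. Multipara 1 was itself picked by its *Mki67* level, so the share of cell cycle genes above describes that choice and supports nothing further. Of 15805 genes tested in both fits, multipara 1 lay above the others in 31.4% and below in 32.0%, which is the background of this count.

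Of 253 higher cell cycle genes tested there, 243 (96.0%) lay above the other untreated libraries and 1 below, with a median log2 fold change of 1.39. Of 632 higher genes outside the lists, 239 (37.8%) lay above and 156 (24.7%) below, with a median of 0.04, close to the background share. Of the 140 with a mean log2 CPM of at least 2 in the S-961 libraries, 60 (42.9%) lay above. Of 102 lower genes outside the lists, 20 (19.6%) lay below the other untreated libraries and 40 (39.2%) lay above, with a median of 0.34, so that the count in the opposite direction was the larger one.

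Of the 15 named higher genes, 3 lay above the other untreated libraries in multipara 1, 6 lay below and 6 lay between. The 3 above were *Slfn9*, *Atad5* and *Gpsm2*. *Slfn9* measured 2.34 CPM in untreated multipara 1 and 0.735 to 1.03 in the others, and *Atad5* measured 2.31 against 1.03 to 1.45, on a scale set over the 4 untreated libraries. *Vip* was lowest in multipara 1, with 11.3 CPM against 17.4 to 48.8. *Fads2* measured 7.53 against 7.66 to 14.5 and *Atf3* 9.87 against 10.6 to 25.4, both just below the nearest library. Of the 14 named lower genes, 2 lay below, *Ppm1e* and *Actr3b*, 8 lay above and 4 between. *Csf2rb* measured 17.9 CPM in untreated multipara 1 and 1.62 to 3.23 in the others, and *Gbp8* 24.6 against 0.966 to 4.57.

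Blood cell markers were high in that same library. All 15 tested lymphocyte genes and all 16 macrophage genes lay above the other untreated libraries there, with summed levels of 1129 and 919 CPM against 53.2 to 678 and 214 to 242. *Cd3e* measured 5.80 CPM in multipara 1 and 0 to 0.423 in the others, and *Ptprc*, the pan-leukocyte antigen CD45, 89.5 against 5.31 to 9.84. All 24 interferon and MHC class I genes also lay above. In multipara S-961 1, 2 and 3 *Ptprc* measured 7.5, 4.76 and 24.3 CPM against 6.49 to 13.5 in the low group. The part of these cells in the *Mki67* of the untreated library and in *Csf2rb* and *Gbp8* was not tested.

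**Figure D4:**
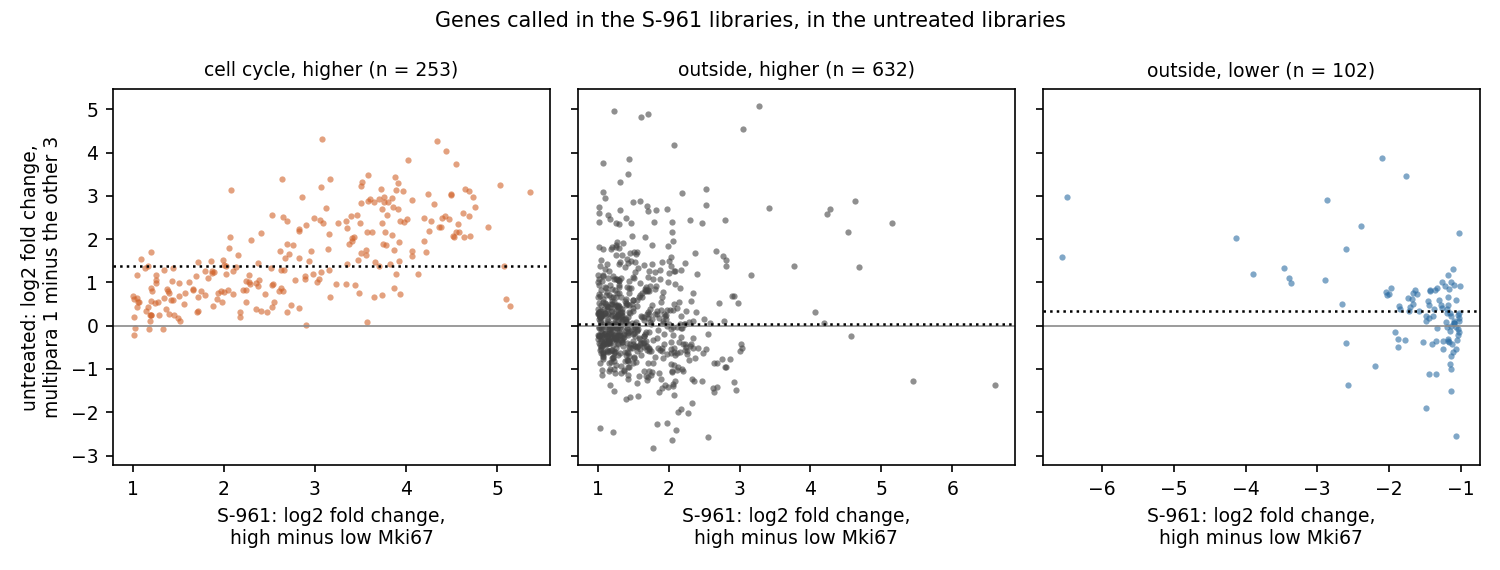
Log2 fold change between untreated multipara 1 and the other 3 untreated libraries (vertical axis) against the log2 fold change between high and low *Mki67* in the S-961 libraries (horizontal axis), one point per gene, for genes at least 2-fold apart without overlap in the latter, with the median of each panel dotted. The medians are 1.39 for 253 higher cell cycle genes, 0.04 for 632 higher genes outside the lists and 0.34 for 102 lower genes outside the lists.

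The promoters of the sets were compared over the same window. A promoter was found for 209 of the 255 higher cell cycle genes, 484 of the 716 higher and 68 of the 127 lower genes outside the lists, and 12018 of all 16784 tested genes. A CCAAT match lay in 60.8% of the higher cell cycle promoters, 34.5% of the higher and 30.9% of the lower promoters outside the lists, and 35.9% of all. The CHR element was found in 23.9, 13.4 and 16.2% of these sets and in 10.8% of all promoters. The E2F octamers were found in 13.4, 2.48 and 1.47%, against 3.20% of all. The motif TTCNNNGAA of STAT factors, which carry prolactin signals in beta cells, was found in 7.18, 6.61 and 2.94%, against 5.80% of all. The promoters printed above stood on both sides of this, with CCAAT in *Mki67*, *Bub1*, *Hmmr*, *Zfp367* and the lower gene *Bcat1*, and none of the motifs in *Slfn9*, *Atad5* and *Vip*. These shares are descriptions of letters in a window and no test was made on them.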

How the data were processed

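Islet RNA of 11 libraries was sequenced as poly(A)-selected, stranded RNA-seq. The authors deposited 1 table of estimated (expected) counts per library with 55536 genes, made with STAR and RSEM on GRCm38/mm10 per the labels of the submitters (versions and strand setting are not given in the sources used here). The deposited expected counts, of which 4449 to 5162 per library were not whole, were rounded. Gene names in the files matched GENCODE M21 for all 55536 genes.

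Libraries were grouped by *Mki67* CPM of the file total. Genes were filtered with filterByExpr (minimum count 10), scaled by TMM and fitted with glmQLFit in edgeR 4.0.16 (R 4.3.3), giving log2 fold changes and standard errors. No p-value was used, since the groups were made from these values. DESeq2 1.42.0 gave alternative fold changes. The steps were tested on simulated data. The submitters' numbers did not pair the libraries: deviations of same-numbered libraries correlated at 0.13, 0.02 and 0.06.

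The members and gene lists were chosen with earlier results of these data known. Named genes lay outside the cell cycle lists and all cell type lists but beta, with mean log2 CPM of 2 or more, 2-fold apart without overlap, and had the 15 widest gaps in each direction (1 of the lower ones is not reported here). From each pathway list up to 4 such members were taken, or the 2 with the highest expression where there was none, from each cell type list the first 3, and from each cell cycle list the 4 with the widest gap. Motifs were searched on both strands of the 250 bases before the RefSeq start closest to the GENCODE start. Alternatives were other scalings, filters, fold limits, *Mki67* thresholds, covariates and leaving out libraries.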

Additional observations from a re-analysis of the deposited data

Results flagged for a closer look

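Among the 4 low libraries, single values stood far from the other 3 by Dixon's criterion in 11 of 78 values checked, where chance alone gives about 1 in 20. *Mki67* itself was 15.6 CPM in virgin S-961 2, above the other low libraries. In the same library *Bcat1* was low at 6.43 CPM and the mean log2 level of the clock genes was high at 4.77. In virgin S-961 1 *Fads2* was low at 5.11 CPM and the duct list at 3.53. In virgin S-961 3 *Pla2g1b* was low at 3.82 CPM and the TGF-beta, BMP and Id list at 3.07, while the lists of cytosolic ribosomal proteins (7.90), mitochondrial ribosomal proteins (4.76), respiratory chain subunits (6.20) and adipocyte genes (1.60) were high.

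Of the 29 named genes, 14 went one way in every high S-961 library and the other way in untreated multipara 1 against all other untreated libraries, a difference that was not tested. The direction in the S-961 libraries was fixed by the choice of these genes. Over all genes tested in both fits, multipara 1 lay above the other untreated libraries in 31.4% and below in 32.0%. Blood cell markers were high in that library, as given above. Among the genes higher in the high S-961 libraries the log2 fold change in untreated multipara 1 was -1.43 for *Vip*, -0.53 for *Fads2*, -0.23 for *Neurl1b*, -0.65 for *Fbln2*, -0.82 for *Atf3* and -0.38 for *Fxyd3*. Among the lower genes it was 1.06 for *Rerg*, 2.03 for *Bcat1*, 0.51 for *Crispld2*, 2.90 for *Csf2rb*, 3.45 for *Gbp8*, 0.72 for *Pdzrn3*, 0.34 for *Nmnat2* and 0.75 for *Gabra4*.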

How the results depend on the processing

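Scaling by DESeq2 size factors or file totals, a prior count of 2, DESeq2 fold changes and a *Mki67* threshold of 20 CPM kept every count within 1.5 times its value of 971 higher and 129 lower genes in all, and 716 and 127 outside the cell cycle lists. Within the multipara label (3 libraries against 1) the counts were 1697 higher and 483 lower in all and 1441 and 477 outside the lists, of which 547 and 106 were shared, and the median of the cell cycle list was 3.02 in place of 2.62. Multipara S-961 4 was the single low library in that comparison. The shared genes had already been chosen for no overlap with it, so nothing is read from these counts. A threshold of 10 CPM moves virgin S-961 2 into the high group. It gave 382 and 49 in all and 272 and 48 outside, of which 192 and 27 were shared. Without a filter on low counts 244 genes were lower in all and 241 outside. At 1.5-fold the counts were 1469 and 362 in all and 1188 and 358 outside, and 30.1% of the lower genes lay below the other untreated libraries. At 4-fold they were 348 and 26 in all and 165 and 26 outside. With a mean log2 CPM of at least 2, chosen after seeing the data as was the fibroblast covariate, 146 and 52 remained outside. The acinar covariate brought the cell cycle median to 2.12. Leaving out 1 library at a time gave 982 to 1355 higher and 131 to 267 lower genes in all, 716 to 1117 and 129 to 261 outside (lower counts over 1.5 times the main ones without multipara S-961 1, 2 or 3, and higher ones outside without multipara S-961 2), a median of 2.44 to 2.79 for the cell cycle list, and shares of 34.3 to 40.7% and 18.6 to 26.2% in the untreated library. The replicate block gave 998 and 138 genes in all, 743 and 136 outside, and a median of 2.61. Of the 29 named genes none changed direction. Their size moved by more than the spread between libraries in 20 at the threshold of 10 CPM, where *Stk32b* (-0.90) and *Actr3b* (-0.88) fell under 2-fold and *Rerg* went from -2.90 to -1.72, and in 12, besides *Mki67* (2.23), under the acinar covariate, where *Slfn9* went from 4.69 to 2.57, *Reg1* to 0.74 and *Pla2g1b* to 0.55. In the lists 65 values moved, 21 of them under the acinar covariate, where the acinar median was 0.05, and 14 within the multipara label. Of the lists, the adipocyte median (2 genes) ranged from -0.11 to 2.69 when 1 library was left out, and turned negative without virgin S-961 3, and the red cell median to 0.72 at the threshold of 10 CPM; the cause was not tested.

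With 3 and 4 libraries, the high group wholly of the multipara label and untreated multipara 1 standing alone, the parity label, library and *Mki67* cannot be fully told apart. Of 13 tested genes of the pregnancy list, the 3 that followed the label without treatment went against it after S-961. Of the other 10, multipara S-961 1, 2 and 3 overlapped the virgin libraries in 8 and lay above them in 2. Most genes outside the lists were weakly expressed.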
